A study of Mus musculus with 24 samples.

Results

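The proximal ends of the mandible and of the maxilla were compared in control mouse embryos at embryonic day 14.5 (E14.5). The arrays were taken by their labels: the 3 control proximal mandible arrays and the 3 control proximal maxilla arrays, 6 of the 24 arrays of the series. Embryos came from crosses of Wnt1cre;Alk5fl/+ with Alk5fl/fl mice, recorded as C57B6 in background strain. Each jaw was cut into a proximal and a distal end, and total RNA of each piece was hybridised to a single-colour array. Alk5 is the type I receptor for TGF-beta, with the gene symbol Tgfbr1, and Wnt1-Cre recombines floxed alleles in the neural crest. Beside the proximal control groups, 4 further groups of 3 arrays were used for comparison: control distal mandible, control distal maxilla, mutant proximal mandible and mutant proximal maxilla, all at E14.5. Mutant embryos were picked out by a cleft palate and a calvarial defect. The controls were their littermates, which from such a cross inherit a floxed allele too, and the labels do not give their Alk5 or Cre genotype further. The labels call the sampled compartment bone, without a boundary for the cut.

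Both jaws grow from the first pharyngeal arch, whose mesenchyme comes mainly from cranial neural crest. In the lower part of the arch, endothelin-1 signalling switches on Dlx5, Dlx6 and Hand2, the transcription factor genes that give the mandible its identity. The upper jaw forms without that signal and next to the nasal cavity, so the neighbouring tissue of a jaw piece (muscle, teeth, nasal epithelium, nerves) is also part of what an array of whole tissue reads.

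Values are log2 signals, so a log2 change of 1 is a doubling, and changes are given as mandible minus maxilla with the standard error (SE) of the limma fit. A gene was tested when it lay above the 40th percentile of an array (6.33 to 6.47, here called the low level) on at least 3 arrays, and called at a Benjamini-Hochberg adjusted p under 0.05. Where all 3 arrays of the dimmer jaw lay under the low level, the fold is given as a lower bound against that level. The labels do not state whether the 3 arrays of a group are 3 embryos, so p-values cover the spread between arrays only, and their number limits the precision. That spread is pooled over all 24 arrays. In whole tissue, fewer cells of a type and less RNA per cell cannot be told apart.

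The 3 mandible arrays were closely alike, with mean correlations to their own group of 0.9933 to 0.9938. The maxilla arrays were less alike, at 0.9832 to 0.9854, and arrays of opposite jaws correlated at 0.9338 to 0.9506. Xist, transcribed from the inactive X chromosome, marked array 1 as female in both jaws (13.57 in mandible 1 and 13.67 in maxilla 1, 6.23 to 6.75 on the other 4), so sex was balanced between the jaws. Tgfbr1 was at most 12.21 in the mandible and at least 12.32 in the maxilla, on all 6 arrays far above the low level. The 3' minus 5' signal of the Actb control probe sets, a measure of RNA quality, was 0.108 to 0.112 in the mandible and 0.121 to 0.148 in the maxilla. That of pyruvate carboxylase was 1.14 to 1.38 in the mandible and 1.43 to 1.58 in the maxilla, and the part of RNA quality in the results was not tested.

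The maxilla arrays differed in tissue makeup. Maxilla 1 held the most RNA of sensory ganglia and was the only array with a high pituitary signal: Cga, the hormone alpha subunit, read 8.89 there against 6.67 and 6.27 on maxilla 2 and 3, and Pomc read 10.33 against 8.22 and 8.32. Maxilla 2 had the most muscle RNA, with a mean of 10.07 over 26 genes, where maxilla 1 had 8.62 and maxilla 3 had 8.01. Maxilla 3 had the most bone and motile cilia RNA.

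**Figure D1:**
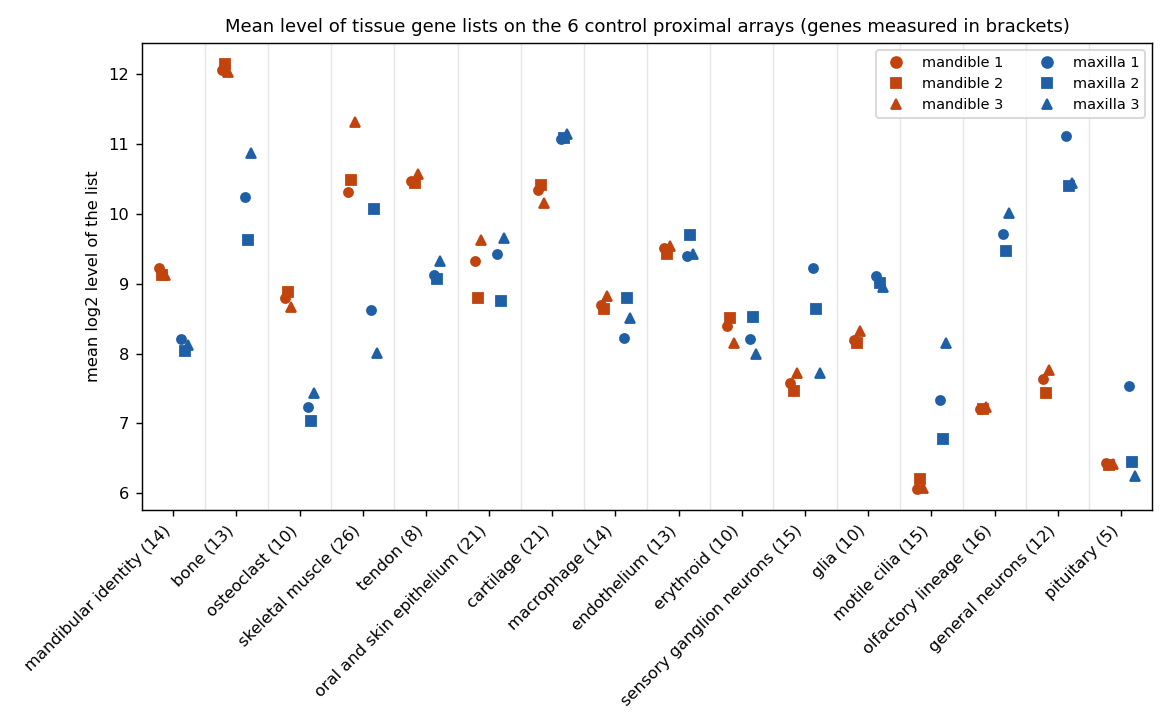
Mean log2 level (vertical axis) of 16 lists of tissue marker genes on each of the 6 control proximal arrays, mandible in orange to the left of maxilla in blue, with circles, squares and triangles for arrays 1, 2 and 3 and the number of genes measured in brackets. Bone, osteoclast and muscle lists lie higher in the mandible and neuronal, olfactory and cilia lists higher in the maxilla, and the maxilla points are spread widely for muscle (8.01 to 10.07) and ganglia (7.72 to 9.22).

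Of 13942 genes tested, 3705 (26.6%) differed between the proximal mandible and maxilla, of which 1588 (11.4%) were higher in the mandible and 2117 (15.2%) lower. Among the calls of at least 1 log2 unit (953 genes, 6.84%) the split was more uneven, with 291 genes higher (2.09%) and 662 lower (4.75%). On 46.4% of all tested genes the 3 mandible arrays did not overlap the 3 maxilla arrays (mandible above on 23.8%, maxilla above on 22.6%), so lack of overlap alone was common. The median change over all tested genes was 0.02. The largest changes belonged to genes of nasal epithelium and neurons, which were lower in the mandible. The 15 largest called increases of named genes with arrays apart, from 2.47 to 3.17, were led by Thbs4 (thrombospondin 4 of tendon), Ambn (ameloblastin of enamel) and Acp5 (the tartrate-resistant phosphatase of osteoclasts), and included Hand2, Phex of osteocytes, Col22a1 of the muscle-tendon junction and Vgll2, a muscle cofactor.

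**Figure D2:**
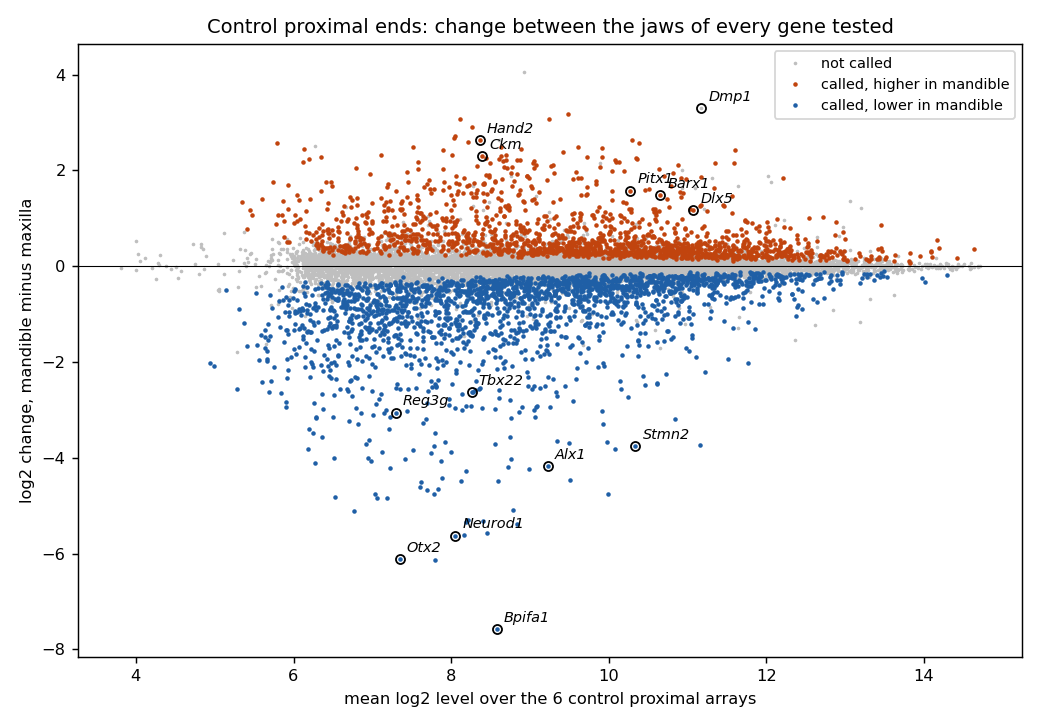
Log2 change of every gene tested (mandible minus maxilla, vertical axis) against its mean log2 level on the 6 control proximal arrays (horizontal axis). Genes called higher in the mandible are orange, genes called lower are blue and others grey, and the changes reach further down, to -7.57 for Bpifa1, than up.

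Genes of mandibular identity were higher in the proximal mandible. Of 15 such genes 14 were measured and 13 passed the low-level filter, and 9 were called higher and none lower, where 11.4% of all tested genes were called higher. Their median change was 1.25 over the 14 measured, against 0.04 over all genes measured. Hand2, a basic helix-loop-helix factor of the lower arch, read 9.77, 9.73 and 9.55 on the mandible arrays and 7.38, 7.18 and 6.57 on the maxilla arrays. The groups stood apart by more than their own range, and Hand2 was 6.23-fold higher in the mandible (2.64 ± 0.36, n = 3 each, limma adjusted p = 2.98e-05). Its 3 probe sets gave changes between 0.45 and 2.64.

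Pitx1, a homeobox gene of the mandible and hindlimb, read 11.19, 11.01 and 10.98 in the mandible and 9.7, 9.26 and 9.49 in the maxilla. It was 2.99-fold higher (1.58 ± 0.19, limma adjusted p = 1.27e-05) and was far above the low level in the maxilla too.

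All 6 Dlx genes were called higher in the proximal mandible. Dlx5 read 11.74, 11.67 and 11.56 in the mandible and 10.56, 10.19 and 10.7 in the maxilla (1.17 ± 0.17, limma adjusted p = 6.77e-05). Dlx6, its neighbour in the genome, read 10.95, 10.72 and 10.81 in the mandible and 9.26, 8.77 and 9.76 in the maxilla (1.56 ± 0.25, 0.000123). On both genes every mandible array lay above every maxilla array. Dlx3 was higher by 1.5 ± 0.22, the dim Dlx4 by 1.33 ± 0.3 (at least 1.66-fold) and Dlx6os1, a noncoding transcript of the Dlx5 and Dlx6 locus, by 1.37. Dlx1 and Dlx2, which pattern the upper arch as well, were also higher, by 1.93 ± 0.4 and 1.88 ± 0.48 (limma adjusted p = 0.00116 and 0.00654). Dlx2 was spread in the maxilla, with 9.17 on array 1 and 7.53 and 7.37 on arrays 2 and 3.

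The other called members were Mef2c, a transcription factor in endothelin signalling (1.16), and Cited1, a transcriptional coregulator (1.52). Edn1 itself, the endothelin-1 ligand, changed by 0.07 and stayed close to the low level on all 6 arrays, from 6.3 to 6.96. Hand1, Gsc and Bmper were not called either, with changes of 0.11, 0.47 and -0.2. Gbx2 lay under the low level on all 6 arrays.

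**Figure D3:**
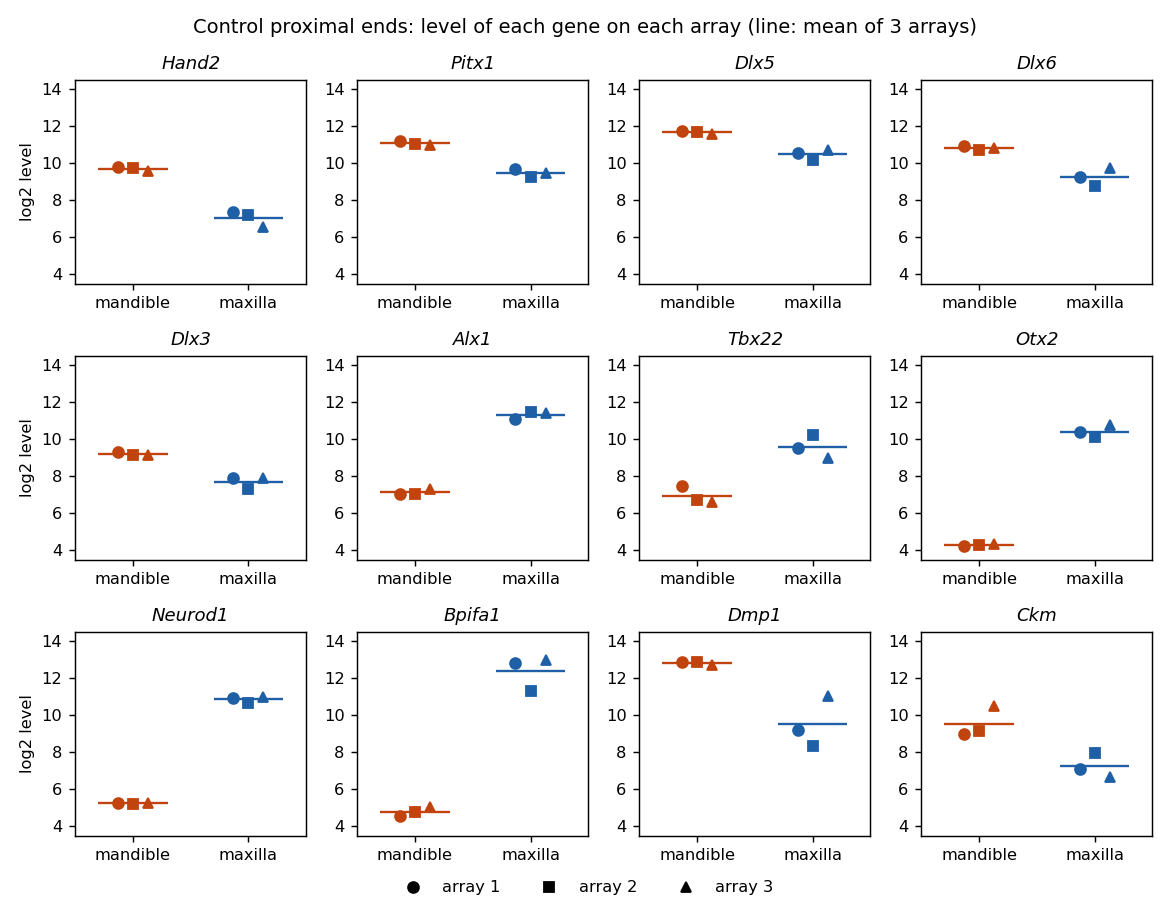
Log2 level (vertical axes) of 12 genes on each control proximal array, mandible left and maxilla right, with the mean of 3 arrays as a line. Hand2, Pitx1 and the Dlx genes are higher in the mandible, Alx1, Tbx22, Otx2, Neurod1 and Bpifa1 are higher in the maxilla, and Dmp1 ranges from 8.35 to 11.05 on the maxilla arrays.

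Promoters are shown for Hand2, the identity gene with the largest difference, and for Otx2, the forebrain and olfactory factor described next, because both windows hold the letters TAATTA, a core bound by Dlx-type homeodomain proteins. The 250 bases before the start are given from RefSeq (GRCm38.p6), for Hand2 at chr8:57320733-57320982, plus strand and for Otx2 at chr14:48667645-48667894, minus strand, for the most upstream of its 4 listed starts. The capitals mark TAATTA, found by a search of both strands.
Hand2: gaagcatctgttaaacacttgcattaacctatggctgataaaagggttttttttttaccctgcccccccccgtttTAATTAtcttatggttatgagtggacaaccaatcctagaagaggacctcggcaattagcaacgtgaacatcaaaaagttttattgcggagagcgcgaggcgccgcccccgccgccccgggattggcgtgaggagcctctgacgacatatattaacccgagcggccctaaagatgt
Otx2: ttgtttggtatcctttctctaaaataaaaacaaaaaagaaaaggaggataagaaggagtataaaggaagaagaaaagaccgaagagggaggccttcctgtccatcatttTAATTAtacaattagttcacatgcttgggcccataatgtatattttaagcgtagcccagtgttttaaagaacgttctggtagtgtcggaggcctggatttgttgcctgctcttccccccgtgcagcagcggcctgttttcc
The letters begin 175 bases before the start in Hand2 and 141 bases before it in Otx2. Windows of the same length held TAATTA in 4.91% of the 27025 genes in the table and in 2.36% of the 11178 tested genes found there. They held it in 2 of the 9 identity genes found there (Hand2 and Dlx6os1) and in 2 of 12 olfactory genes (Otx2 and Neurog1). The letters TAATCC, the core of Pitx- and Otx-type factors, were searched too, and were in 0 of the 9 and 1 of the 12 windows, against 6.37% of all. A match describes the letters and not a bound site.

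Genes of maxillary and frontonasal identity gave a mixed picture. Of 10 measured, 4 were called lower in the mandible and none higher, where 15.2% of all tested genes were called lower, and the median change was -0.25. Alx1, an aristaless-type homeobox gene of the frontonasal region, read 7.06, 7.06 and 7.31 in the mandible and 11.09, 11.45 and 11.41 in the maxilla. It had the largest change of the list (-4.17 ± 0.35, limma adjusted p = 4.3e-07), and every mandible array lay far under every maxilla array. Foxl2, a forkhead factor, changed by -1.47 ± 0.3, Pax3, a factor of neural crest and muscle precursors, by -1.34 ± 0.3 and Six2 by -0.76 ± 0.2. The 2 probe sets of Foxl2 gave changes of -1.47 and -0.13.

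Mesenchymal genes of the arch and the palate were called higher in the mandible more often than lower. Of all tested genes 11.4% were called higher and 15.2% lower. Of 10 arch mesenchyme genes 5 were called higher (Dlx1, Dlx2, Msx1, Prrx1 and Twist1) and 2 lower (Tfap2a and Tfap2b). Of 14 measured palate genes 6 were called higher and 1 lower, with a median of 0.74. Meox2, a homeobox gene, read 11.19, 11.02 and 11.42 in the mandible and 9.46, 8.89 and 8.78 in the maxilla (2.17 ± 0.44, limma adjusted p = 0.00104). Shox2 rose by 1.61 ± 0.32 and Barx1, a homeobox gene of the molar region, by 1.48 ± 0.36. The remaining increases were Lhx8, Osr1 and Foxf1.

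Tbx22, whose loss causes cleft palate in humans, went against the rest of the palate list. It read 7.49, 6.72 and 6.61 in the mandible and 9.53, 10.21 and 8.99 in the maxilla, without overlap (-2.64 ± 0.53, limma adjusted p = 0.00102). With any single array left out the number of palate genes called higher was 4, or 9 without maxilla 1, and Tbx22 kept its call each time.

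Olfactory and neuronal genes were lower in the mandible. Otx2, a homeobox factor of the anterior head, read 4.22, 4.31 and 4.34 in the mandible and 10.36, 10.11 and 10.74 in the maxilla. The mandible values lay under the low level, so Otx2 was at least 16.4-fold lower there (-6.11 ± 0.95, limma adjusted p = 0.000107). Neurod1, a basic helix-loop-helix factor of differentiating neurons, read 5.24, 5.22 and 5.25 in the mandible and 10.92, 10.68 and 10.99 in the maxilla, at least 22.5-fold lower in the mandible (-5.62 ± 0.89, 0.000125). For both genes the 6 arrays formed groups that did not come near each other.

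Of 16 measured olfactory lineage genes 13 were called lower in the mandible and none higher, with a median of -1.9. Among all tested genes 15.2% were called lower. Besides Otx2 and Neurod1 the 13 included the LIM-homeobox gene Lhx2 (-5.61 ± 0.54, at least 24.2-fold) and the zinc finger gene Insm1 (-5.58 ± 0.8, at least 29.2-fold). Gng8 (-2.94), a G protein subunit, and the cyclic nucleotide-gated channel gene Cnga2 (-2.34) were among them too. Omp, the marker of mature olfactory neurons, was also lower, by 1.02, and read 6.87 to 7.15 in the mandible and 7.65 to 8.65 in the maxilla. Other neural factors among the 15 largest decreases were Nhlh2 (-6.13 ± 0.82, at least 22.5-fold), Zic1 (-5.33 ± 0.68, at least 25.9-fold), Olig1 (-5.29 ± 0.9, at least 22.5-fold) and Sp8 (-5.12 ± 0.79, at least 7.74-fold).

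General neuronal genes followed them. Of 12 measured, 11 were called lower in the mandible, where 15.2% of all tested genes were. The other, Dcx, changed by -1.11 (limma adjusted p = 0.112), and the median of the list was -3.31. Stmn2, a microtubule regulator of growing axons, read 8.6, 8.29 and 8.49 in the mandible and 12.42, 11.99 and 12.23 in the maxilla (-3.76 ± 0.39, limma adjusted p = 2.74e-06). The mandible level was well above the low level, so neuronal RNA was present in both jaws. Map2 changed by -1.36 ± 0.17 and the synaptic gene Snap25 by -4.51 ± 0.52 (at least 11.3-fold).

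Glial genes were lower as well: 6 of 10 measured were called lower in the mandible and none higher. The share of all tested genes called lower was 15.2%. Fabp7 changed by -3.2 ± 0.64, the myelin gene Mbp by -1.4 ± 0.21 and Sox10, the factor of neural crest glia, by -0.87 ± 0.16. Of 16 forebrain genes 9 lay under the low level on all 6 arrays. The 5 called lower were Six3, Pax6 (-3.84 ± 0.44, at least 8.41-fold), Sp8, Olig2 and Slc17a6, of which Pax6 and Sp8 are also active in nasal and olfactory tissue.

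Genes of sensory ganglia varied between the maxilla arrays. Of 15 measured, 5 were called lower in the mandible and 1, Runx3, higher (1.09 ± 0.22). All tested genes had shares of 15.2% called lower and 11.4% called higher. Isl1, a LIM-homeobox factor of sensory neurons, read 7.1, 6.71 and 7.37 in the mandible and 11.14, 9.9 and 9.09 in the maxilla (-2.98 ± 0.4, limma adjusted p = 2.56e-05). The neurofilament gene Nefm was not called: it read 9.1, 8.04 and 9.4 in the mandible and 12.32, 11.34 and 7.82 in the maxilla, so that maxilla 3 lay under every mandible array. Without maxilla 3 the number called lower was 10, and without maxilla 1 it was 5.

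Nasal epithelium was read in the maxilla. Bpifa1, a secreted protein of upper airway epithelium, read 4.55, 4.79 and 5.03 in the mandible and 12.8, 11.32 and 12.99 in the maxilla. It had the largest change of all called genes with a name, at least 63.8-fold lower in the mandible (-7.57 ± 0.58, limma adjusted p = 4.18e-07). Reg3g, an antimicrobial lectin, changed by -3.06 ± 0.52 (at least 5.49-fold) and the sulfotransferase gene Sult1c1 by -2.4 ± 0.85 (at least 1.46-fold). These 3 were the calls among 10 measured nasal secretory genes, of which 5 lay under the low level on all arrays. Among all tested genes 15.2% were called lower. The call of Sult1c1, at 8.84 on maxilla 3 and 6.0 and 5.92 on the other maxilla arrays, was lost when any mandible array or maxilla 3 was left out.

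Motile cilia genes were called lower in the mandible, 10 of 15 measured and none higher, with a median of -1.2. The share of all tested genes called lower was 15.2%. Foxj1, the master regulator of motile cilia, read 6.08, 6.22 and 6.22 in the mandible and 8.77, 7.38 and 10.05 in the maxilla, at least 5.16-fold lower in the mandible (-2.57 ± 0.41, limma adjusted p = 0.000139). Within the maxilla, array 3 was highest and array 2 lowest, and the same order held for Ccno, Deup1, Rsph1 and Tekt1. The number called was 10 with each array left out in turn.

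Promoters of Ccno, a cyclin of basal body formation, and Tekt1, a tektin of the ciliary axoneme, are printed because these called genes hold GTTGCCA, letters that RFX factors recognise, and RFX factors act on cilia genes. They lie at chr13:112987552-112987801, plus strand, and chr11:72361883-72362132, minus strand (RefSeq, GRCm38.p6), with the motif in capitals.
Ccno: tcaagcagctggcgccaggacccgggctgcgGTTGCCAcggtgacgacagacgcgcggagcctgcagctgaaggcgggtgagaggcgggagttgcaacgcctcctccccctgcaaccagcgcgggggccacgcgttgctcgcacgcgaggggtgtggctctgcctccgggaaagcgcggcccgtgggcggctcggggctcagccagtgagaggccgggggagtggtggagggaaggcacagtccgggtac
Tekt1: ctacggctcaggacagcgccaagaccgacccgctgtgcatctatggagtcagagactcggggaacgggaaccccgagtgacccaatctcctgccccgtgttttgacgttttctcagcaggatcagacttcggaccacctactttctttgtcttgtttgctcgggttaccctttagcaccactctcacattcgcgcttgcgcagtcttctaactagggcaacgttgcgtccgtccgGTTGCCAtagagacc
The motif begins 219 bases before the start in Ccno and 15 before it in Tekt1. On both strands it was found in 3 of 13 cilia genes with a window (Ccno, Mcidas and Tekt1), against 3.7% of all genes in the table and 3.28% of those tested.

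Bone and osteoclast genes were higher in the proximal mandible. Of 13 measured bone genes 9 were called higher and none lower, with a median of 1.89. Of all tested genes 11.4% were called higher and 15.2% lower. Sp7, the osteoblast factor osterix, read 11.73, 11.76 and 11.43 in the mandible and 9.82, 9.3 and 10.14 in the maxilla (1.89 ± 0.28, limma adjusted p = 6.45e-05). Alpl, the bone phosphatase, rose by 1.87 ± 0.31, Omd, osteomodulin, by 2.23 ± 0.41, Smpd3 by 1.98 ± 0.34 and Ifitm5, a bone-restricted membrane protein, by 2.43. The collagen genes Col1a1 and Col1a2 rose by 1.02 and 0.37. Without maxilla 1 or maxilla 2 the number called fell to 6, and without maxilla 3 it was 11.

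Dmp1, the matrix protein of osteocytes, read 12.89, 12.87 and 12.69 in the mandible and 9.18, 8.35 and 11.05 in the maxilla. The groups did not overlap, but the maxilla arrays spread over 2.7 log2 units and the change of 3.29 ± 1.22 missed the threshold (limma adjusted p = 0.0516). Under 16 alternatives its adjusted p lay between 0.00165 and 0.166, and 9 of them called it. Among these were the fits to only the arrays compared and to control arrays only. Phex, the endopeptidase of osteocytes, was called (2.57 ± 0.81, 0.0236) but lost the call without any mandible array, maxilla 1 or maxilla 2. Ibsp, bone sialoprotein, read 13.74 to 13.91 in the mandible and 11.87 to 13.13 in the maxilla (1.21, limma adjusted p = 0.19). The RNA of this bone gene was thus high in both jaws.

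Of 10 osteoclast genes 8 were called higher in the mandible, where 11.4% of all tested genes were. That count of 8 held with each array left out. Atp6v0d2, a subunit of the proton pump, read 9.83, 9.81 and 9.52 in the mandible and 6.68, 6.5 and 7.27 in the maxilla, 7.48-fold higher (2.9 ± 0.24, limma adjusted p = 4.18e-07). Ocstamp and Dcstamp, which osteoclast precursors need to fuse, rose by 2.18 ± 0.19 (at least 1.78-fold, under the low level in the maxilla) and 1.79 ± 0.18, Ctsk by 1.46 ± 0.27 and Acp5 by 3.07 ± 0.66. Macrophage genes, which share a lineage with osteoclasts, gave 2 calls among 14 measured, both higher (Cd68 and Tyrobp), which is near the 11.4% of all tested genes, and a median of 0.03. Tyrobp lost its call without mandible 3 or maxilla 1, and the count was 1 to 3 with single arrays left out.

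Cartilage genes had levels in the other direction. The median change of 21 measured was -0.87, and 18 of them had a negative change. But only Matn4 (-2.21 ± 0.59), a matrilin, and Sox5 (-1.53 ± 0.44) were called lower, where 15.2% of all tested genes were. The 7 probe sets of Sox5 gave changes from -1.53 to 0.04, and 6 of them had the same sign. Col2a1, the main collagen of cartilage, read 13.37, 13.38 and 13.22 in the mandible and 13.95, 13.86 and 13.95 in the maxilla (-0.6, limma adjusted p = 0.497). Ihh, the hedgehog ligand of maturing chondrocytes, was called higher by 0.86 ± 0.14. Among jaw joint and middle ear genes, Emx2 (-2.97 ± 0.33), Eya1 (-1.11 ± 0.17) and Erg (-0.57 ± 0.17) were lower in the mandible, and Gdf5, a joint marker, changed by 0.43 ± 0.27 (0.261). Emx2 is also counted among the olfactory lineage genes called lower.

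Skeletal muscle genes were higher in the mandible, 16 of 26 called and none lower, with a median of 1.87. The share of all tested genes called higher was 11.4%. Ckm, muscle creatine kinase, read 8.96, 9.17 and 10.48 in the mandible and 7.09, 7.96 and 6.66 in the maxilla (2.3 ± 0.41, limma adjusted p = 0.000344). Chrna1 and Chrng, subunits of the acetylcholine receptor, rose by 2.1 ± 0.58 and 1.57 ± 0.4, and the myogenic factor Myod1 by 2.05. The genes varied within both jaws, highest on mandible 3 and, in the maxilla, on maxilla 2. Myl1, a myosin light chain, read 12.16, 12.35 and 12.95 in the mandible and 10.54, 12.3 and 9.57 in the maxilla, so that maxilla 2 reached the mandible. The number of muscle genes called fell to 2 without mandible 3 and to 3 without maxilla 3, and was 7 without maxilla 1, 12 and 11 without mandible 1 and 2, and 23 without maxilla 2. The median of the list stayed between 1.39 and 2.48.

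The promoters of Ckm and Chrna1 are shown because muscle genes moved together and these windows hold CAGCTG, an E-box of the kind that MyoD-family factors bind. They lie at chr7:19410844-19411093, plus strand, and chr2:73580339-73580588, minus strand (RefSeq, GRCm38.p6), with the motif in capitals.
Ckm: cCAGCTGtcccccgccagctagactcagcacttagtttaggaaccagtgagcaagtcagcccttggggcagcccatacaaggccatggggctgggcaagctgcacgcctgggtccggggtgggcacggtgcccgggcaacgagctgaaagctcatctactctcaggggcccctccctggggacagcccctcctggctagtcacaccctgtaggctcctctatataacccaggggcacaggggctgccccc
Chrna1: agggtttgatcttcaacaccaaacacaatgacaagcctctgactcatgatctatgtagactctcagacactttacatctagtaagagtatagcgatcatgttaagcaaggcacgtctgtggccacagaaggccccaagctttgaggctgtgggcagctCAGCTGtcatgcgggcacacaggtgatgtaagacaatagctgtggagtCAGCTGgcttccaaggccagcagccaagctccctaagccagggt
The motif begins 249 bases before the start in Ckm, and 44 and 92 bases before it in Chrna1. It reads the same on both strands and was found in 9 of 21 muscle genes with a window (42.9%), against 12.7% of all genes in the table and 11.9% of those tested.

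Tendon genes were higher too, with 5 of 8 called, against 11.4% of all tested genes called higher, and a median of 1.04. Thbs4 read 10.83, 11.04 and 11.33 in the mandible and 8.03, 8.3 and 7.36 in the maxilla, 9.0-fold higher (3.17 ± 0.37, limma adjusted p = 8.11e-06). Col22a1 rose by 2.64 ± 0.68 and Mkx, a homeobox factor of tendon, by 1.04 ± 0.27. Scx, the scleraxis factor, changed by 0.43 (0.103). Tenomodulin, Tnmd, rose by 1.05 ± 0.3 and lost its call without maxilla 1.

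Epithelial genes moved in both directions. Of 21 measured oral and skin epithelium genes 6 were called higher in the mandible and 6 lower, beside 11.4% and 15.2% of all tested genes. The higher ones were Krt5, Krt6a, Krt13, Krt14 and Krt15, all keratins of stratified epithelium, with the desmosomal gene Pkp1. Krt1 and Krt10, keratins of the upper layers of skin, changed by -0.87 (limma adjusted p = 0.128) and -0.45 (0.427). Krt5 read 10.74, 10.39 and 11.08 in the mandible and 9.41, 7.9 and 9.54 in the maxilla (1.79, limma adjusted p = 0.00278). The lower ones were the simple epithelium keratins Krt8 and Krt18 with Epcam, Cdh1, Esrp1 and Grhl2. Krt8 read 8.9, 8.53 and 9.22 in the mandible and 11.55, 11.22 and 12.06 in the maxilla, 6.62-fold lower in the mandible (-2.73 ± 0.36, 2.4e-05). Without mandible 3 or maxilla 2, 3 genes were called higher and 7 lower.

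Of 13 measured tooth genes 5 were called higher and 1 lower, where 11.4% of all tested genes were called higher and 15.2% lower. Ambn, an enamel matrix gene, read 9.72, 9.82 and 9.43 in the mandible and 7.04, 5.33 and 7.35 in the maxilla (3.08 ± 0.64, limma adjusted p = 0.00137). Amelx, another gene of the list, lay under the low level on all 6 arrays, and Dspp did not pass the filter. Wnt10a, a ligand of the tooth germ, rose by 1.31 ± 0.21, Wnt10b by 0.66 ± 0.18, and Sostdc1, a secreted inhibitor around the enamel knot, by 1.23 ± 0.27. Shh rose by 2.24 ± 0.68 but read 9.3 on maxilla 1 and 6.24 and 6.91 on the other maxilla arrays, and lost its call without maxilla 2, maxilla 3 or mandible 2. The lower tooth gene was Fgf9 (-0.31 ± 0.1), which lost its call under 6 of 16 alternatives. Of 3 salivary gland genes that passed the filter, Bhlha15, a factor of secretory cells, was called higher (1.02 ± 0.12). Sox2, a factor of oral and olfactory epithelium, was lower by 2.4 ± 0.28 in the tongue and pharynx list, where Nkx2-3 (0.67 ± 0.18) and Tbx1 (limma adjusted p = 0.0498) were higher. Tbx1 lost its call under 9 of 16 alternatives.

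Wnt pathway calls fell largely on secreted inhibitors, which also form a large part of the list. Of 19 genes measured 6 were called higher and 2 lower, with a median of 0.19. Of all tested genes 11.4% were called higher and 15.2% lower. Dkk1, which blocks Wnt co-receptors, read 11.36, 11.28 and 10.91 in the mandible and 9.34, 8.57 and 9.11 in the maxilla, 4.52-fold higher (2.18 ± 0.22, limma adjusted p = 1.87e-06). Sost, sclerostin of osteocytes, read 7.08, 6.97 and 7.36 in the mandible and stayed under the low level in the maxilla, at 5.64, 5.57 and 5.47 (1.58 ± 0.18, at least 1.7-fold). Wif1 rose by 1.45 ± 0.24, Dkk2 by 0.71 ± 0.13, the Wnt deacylase gene Notum by 0.88 and the ligand gene Wnt16 by 0.56. Sfrp1, another secreted inhibitor, fell by 1.08, and Wnt4 fell by 0.67. Axin2, a feedback target of the pathway, changed by -0.04 (0.822).

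The jaws were also compared at the distal control end and at the mutant proximal end, whose arrays entered the proximal comparison only through the shared spread, the filter and the choice of probe set. Proximal and distal control arrays may come from the same embryos, which the labels do not state, so the ends are not known to be independent. At the distal control end 2486 genes (17.8%) differed between mandible and maxilla (8.37% higher, 9.46% lower), and at the mutant proximal end 776 (5.57%; 1.24% higher, 4.33% lower). Of the 1588 genes higher in the proximal control mandible, 92.2% had the same sign at the distal end and 43.4% were called there too. For the 2117 lower genes the shares were 90.6% and 42.6%. At the distal end 50.6% of all tested genes had a positive and 49.4% a negative jaw difference. In the mutants the same sign was found for 84.4% of the higher and 94.4% of the lower genes, where 49.3% and 50.7% of all tested genes had that sign, and 7.68% and 22.8% were called.

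The jaw difference itself differed between the proximal and distal control ends for 309 genes (2.22%), 165 (1.18%) with a higher and 144 (1.03%) with a lower value at the proximal end. That number was 149 to 460 with 1 array left out, lowest without proximal mandible 1 and highest without distal maxilla 2. Hand2 had a jaw difference of 2.64 at the proximal end and 6.94 at the distal end, where it read 12.46 ± 0.12 in the mandible and 5.52 ± 0.36 in the maxilla (SD, n = 3). The proximal minus distal value was -4.3 ± 0.51 (limma adjusted p = 0.000138). Alx1, in contrast, had the larger jaw difference at the proximal end. It was -4.17 there and -0.35 at the distal end, of the same sign but not called (limma adjusted p = 0.572). At the distal end Alx1 read 11.75 ± 0.093 in the mandible and 12.1 ± 0.33 in the maxilla (proximal minus distal -3.82 ± 0.5, limma adjusted p = 0.000337).

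Tbx22 had opposite signs at the ends and was called at both. Its jaw difference was -2.64 at the proximal end and 2.09 at the distal end, where it read 8.63 ± 0.31 in the mandible and 6.54 ± 0.73 in the maxilla (difference -4.73 ± 0.75, limma adjusted p = 0.00264). Isl1 had a jaw difference of -2.98 at the proximal end and 0.96 at the distal end, which was not called there (adjusted p = 0.106), and the difference between the ends was called (-3.95 ± 0.56, 0.000945). Tfap2b, a neural crest factor, had a jaw difference of -1.09 at the proximal and -3.29 at the distal end (2.2 ± 0.37, 0.00378).

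Dkk1 and Sost had jaw differences of 2.18 and 1.58 at the proximal end and of 0.13 (adjusted p = 0.751) and 0.17 (0.6) at the distal end. The difference between the ends was 2.04 ± 0.31 for Dkk1 (limma adjusted p = 0.00185) and 1.41 ± 0.25 for Sost (0.00622). The differences of Hand2, Alx1, Tbx22, Isl1, Tfap2b, Dkk1 and Sost between the ends kept their calls with any of the 12 arrays left out. Those of Pitx1 (-1.25 ± 0.27, adjusted p = 0.02) and Shox2 (1.94 ± 0.46, 0.0316) were kept in 7 and 4 of the 12. The largest values, 4.6 ± 0.78 for Hrnr and 4.09 ± 0.35 for Serpinb2, came from epidermal genes that lay under the low level at the proximal end of both jaws and read 6.27 to 9.88 and 7.81 to 9.23 in the distal maxilla.

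**Figure D4:**
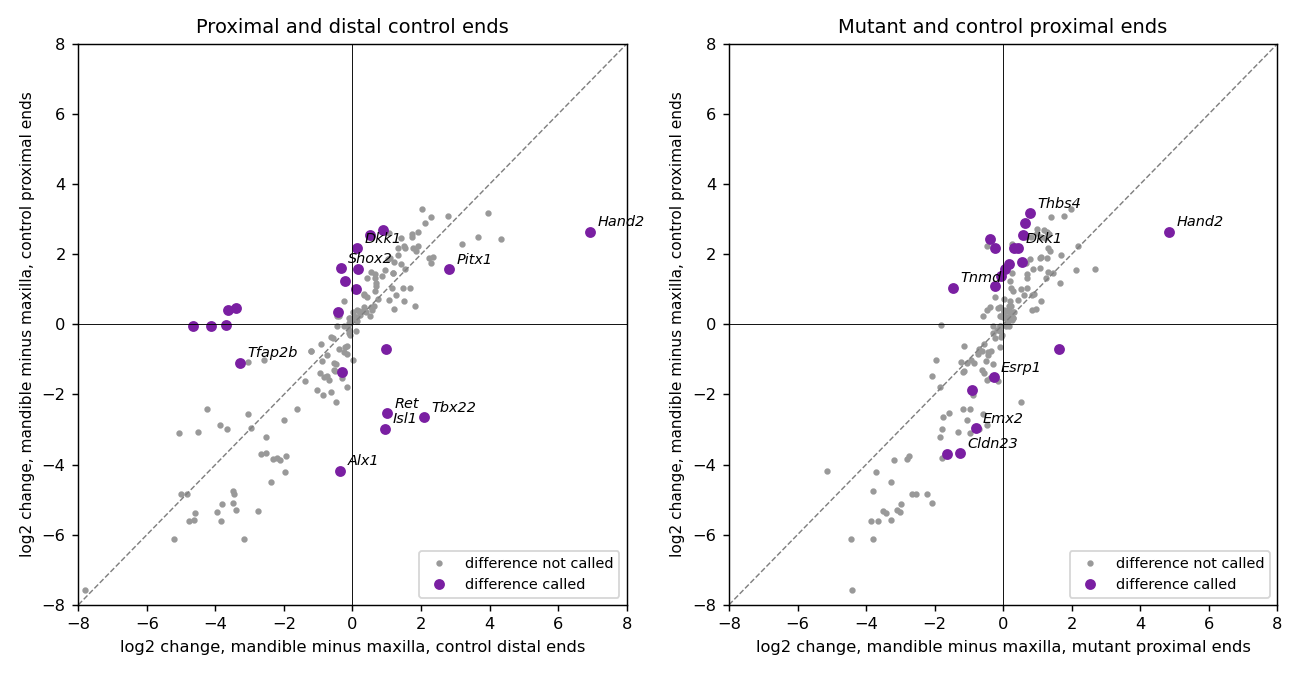
Log2 change between the jaws at the control proximal ends (vertical axes) against that at the control distal ends (left) and at the mutant proximal ends (right) for 172 named genes, with equal changes on the dashed line and genes whose difference was called in purple. Hand2 lies right of the line in both panels, at 2.64 in proximal controls, 6.94 distally and 4.84 in mutants, and Alx1, Isl1, Ret and Tbx22 lie far under the line on the left.

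In the mutants, the proximal jaw difference differed from that in controls for 136 genes (0.975%), 47 (0.337%) with a higher and 89 (0.638%) with a lower value in mutants. That number was 34 to 290 with 1 array left out, lowest without control mandible 2 and highest without mutant mandible 3. Mutant arrays 1 and 3 of both jaws carried both Xist (11.64 to 12.73) and the Y-linked Eif2s3y (9.05 to 9.75), and the labels do not mention pooling. Among mutant arrays Tgfbr1 read 12.36 to 12.45 for the mandible and 12.29 to 12.52 for the maxilla, and whether its probe set lies in the deleted part is not given in the sources used here.

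Identity genes were higher in the mutant mandible too. Hand2 differed by 4.84 and Pitx1 by 2.69 in mutants, Dlx5 by 1.65 and Dlx6 by 2.14, and 7 identity genes were called higher in the mutant mandible, where 1.24% of all tested genes were. The difference of Hand2 from controls (2.2 ± 0.51, limma adjusted p = 0.0411) was kept with 3 of 12 arrays left out. Alx1 was lower in the mutant mandible by 5.13. Otx2 read 4.24, 4.31 and 4.16 in the mutant mandible against 9.76, 10.08 and 4.26 in the maxilla, and Neurod1 read 5.78, 4.75 and 5.19 in the mutant mandible against 10.73, 10.5 and 5.43 in the maxilla. For both genes mutant maxilla 3 lay near the mandible level. Their jaw differences of -3.8 ± 0.95 and -3.65 ± 0.89 (limma adjusted p = 0.023 and 0.0198) became -5.68 and -5.37 without that array. Otx2 lost its call without any of the other 5 arrays and Neurod1 without 4 of them. Of Alx1, Otx2 and Neurod1, 0 passed limma's test of a difference from controls.

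Of 9 osteoclast genes tested 0 were called in mutants by limma, and 3 had an unadjusted p under 0.05. With 5.57% of all tested genes called in mutants, a count of 0 is near the share of all genes. Atp6v0d2 read 6.73 ± 0.47 in the mutant mandible against 6.08 ± 0.13 in the maxilla, a jaw difference of 0.64 beside 2.9 in controls (-2.26 ± 0.34, limma adjusted p = 0.00586). For Ocstamp the mutant minus control value was -1.86 ± 0.27 (0.00586) and for Dkk1 and Sost it was -1.73 ± 0.31 (0.0131) and -1.52 ± 0.25 (0.00935). Tnmd had turned, with 7.93 ± 0.86 in the mutant mandible against 9.39 ± 0.29 in the maxilla (-2.51 ± 0.42, 0.00935). These 5 differences kept their calls whichever of the 12 arrays was left out. Of 13 bone genes 5 were still called higher in the mutant mandible, where 1.24% of all tested genes were. Of 26 muscle genes limma called 0 there, which is near that share, 3 had an unadjusted p under 0.05, and the median was 0.74. Their mean level was 10.17, 9.3 and 10.49 in the mutant mandible against 8.68, 8.55 and 10.41 in the maxilla, so that mutant maxilla 3 lay within the mandible range. Without it 4 muscle genes were called higher and the median was 1.34.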

How the data were processed

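Total RNA (5 µg, per the labels) was hybridised to single-colour arrays, and the authors made the values by RMA, per the submitters' processing notes. The deposited values were read as log2 from their range, 3.29 to 14.86, since the base is not given in the sources used here. Array medians were 7.03 to 7.12. Detection calls and scanner files were not used here, so background correction could not be varied.

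Of 45101 probe sets, 34945 carried exactly 1 symbol in the array annotation, 932 several and 9160 none, and 64 were controls. Each of 18193 genes took its brightest probe set by the mean of all 24 arrays. RefSeq (GRCm38.p6) identifiers matched 34741 of the probe sets and changed 0 symbols.

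limma 3.58.1 in R 4.3.3 was fitted to all 24 arrays with 1 mean for each of 8 groups and eBayes with a mean-variance trend. All tests were two-sided, with Benjamini-Hochberg adjustment over 13942 genes. Mandible minus maxilla was tested in proximal controls, in distal controls and in proximal mutants. Tested too were the proximal control difference minus its distal counterpart, and the mutant proximal difference minus the control one. The fit was tested on simulated data. A change carries the fit's standard error, a level the standard deviation of 3 arrays.

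The groups, gene lists (35) and members were chosen with earlier results of these data known. Named were Hand2, Pitx1, Otx2, Neurod1, Dmp1 and the measured Dlx genes, and the 15 largest called changes in each direction with arrays apart. Up to 4 members of each list with the largest statistic were named too. So were the 5 largest changes in each direction of the contrasts between the ends and between genotypes. Among the largest changes, unnamed transcripts, Xist and Y-linked genes were passed over. Other list members are given with their values and were chosen after those were seen. Alternatives were the arrays fitted, the replicate block, the filter, repeated quantile normalization, array weights, the mean of probe sets, no trend, a log2 change of 1 and leaving out each array. The counts of list members without single arrays, and the mutant values without single mutant arrays, were added after seeing the data. Tables were made with pandas 2.3.3 and numpy 2.4.6 in Python 3.11.15, and plots with matplotlib 3.10.9.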

Additional observations from a re-analysis of the deposited data

Results flagged for a closer look

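The jaw difference (mandible minus maxilla) at the proximal control end differed from that at the distal control end for 309 genes, and the proximal jaw difference differed between mutants and controls for 136, each by the test of that difference in limma. Among the genes named here, the value of proximal minus distal was negative for Tbx22 (-4.73), Hand2 (-4.3), Isl1 (-3.95), Alx1 (-3.82), Ret (-3.55), Tspan8 (-1.69), Pitx1 (-1.25) and Map2 (-1.03). It was positive for the epidermal or keratinocyte genes Hrnr (4.6), Serpinb2 (4.09), Crct1 (4.03) and Stfa3 (3.68), for Dynap (3.85), for Tfap2b (2.2), Clec2g (2.05), Dkk1 (2.04), Shox2 (1.94), Lipi (1.79), Sostdc1 (1.46), Sost (1.41), Bhlha15 (0.93) and Twist1 (0.76). Ret, a receptor of autonomic and sensory neurons, read 6.34 to 6.74 on the proximal mandible arrays and 10.16, 9.43 and 7.49 on the proximal maxilla arrays.

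The value of mutant minus control was positive for Cldn23 (2.43), Tspan8 (2.32), Hand2 (2.2), Emx2 (2.17), Mal2 (2.06), Esrp1 (1.22) and Gap43 (0.96). It was negative for Atp1b4 (-2.83), Tnmd (-2.51), Mamdc2 (-2.42), Thbs4 (-2.38), Atp6v0d2 (-2.26), Clec2g (-1.98), Ocstamp (-1.86), Dkk1 (-1.73), Rbp4 (-1.56), Sost (-1.52), Cd68 (-1.43), Runx3 (-1.33) and Dcstamp (-1.25). Tspan8, an epithelial tetraspanin, was 7.8 ± 0.26 in the mutant proximal mandible and 6.17 ± 0.24 in the mutant proximal maxilla, against 8.07 ± 0.3 in the control mandible and 8.77 ± 0.064 in the control maxilla (SD, n = 3). With each of 12 arrays left out in turn, the calls of Hand2, Runx3, Cd68 and Gap43 between mutants and controls were kept in 2 or 3 cases, and between the ends those of Sostdc1 and Map2 in 3 and 4 of 12.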

How the results depend on the processing

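The 3705 genes differing between the proximal control jaws stayed between 2731 and 3362 with 1 array left out, and their number was within 1.5 times under the other alternatives, except that 953 changed by at least 1 log2 unit. No named gene that was called reversed its sign, and 113 of 131 called genes kept the call under all alternatives other than the fold threshold. The difference between the ends, 309 genes, gave 171 at that fold, 625 from the 12 control arrays alone (which are also the arrays compared), 875 with array weights, and 149 to 460 with 1 array left out, within 1.5 times only without proximal maxilla 3 (403) or distal maxilla 2 (460). The difference between mutants and controls, 136 genes, gave 68 at that fold, 33 from the 12 arrays compared, and 34 to 290 with 1 array left out, the highest without mutant mandible 3, and within 1.5 times only without control maxilla 2 (176) or mutant maxilla 2 (147). The cause of these shifts was not tested.

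Replicate numbers were checked for pairing by correlating deviations from the group means, across genes. Same-numbered arrays of the 2 jaws gave r of 0.425, 0.195 and 0.0174 in proximal controls, 0.327, 0.0623 and 0.00355 in distal controls and 0.24, 0.254 and 0.152 in proximal mutants. Proximal against distal gave 0.681, 0.329 and 0.501 in the control mandible and 0.373, 0.137 and 0.0307 in the control maxilla. Since not every pair of the groups compared was over 0.1, the numbers were not taken as pairs, although every pair was over 0.1 in the mutants and in the control mandible. By Xist and Eif2s3y, array 1 was female and arrays 2 and 3 male in every control group. In the proximal mutants arrays 1 and 3 carried both transcripts and array 2 only Xist, in both jaws. Same-numbered arrays may therefore come from the same embryos or pools, and this was not settled. With the replicate block fixed, 4804 genes were called between the jaws, 694 between the ends and 607 between genotypes. With it random (correlation 0.231) there were 4718, 690 and 481. Signal near background limits Otx2, Neurod1, Bpifa1, Sost and other genes under the low level in 1 jaw to lower bounds.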

Other observations

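Of 12 measured retinoic acid genes 6 were called lower in the proximal mandible, where 15.2% of all tested genes were, and 1 higher, with a median of -0.51. Without maxilla 2 the number called lower was 4. Aldh1a1, an enzyme of retinoic acid synthesis, read 5.34, 5.59 and 5.42 in the mandible and 8.24, 7.46 and 9.98 in the maxilla, at least 4.56-fold lower in the mandible (-3.11 ± 0.47, limma adjusted p = 7.44e-05). The binding protein genes Crabp1 and Crabp2 changed by -0.8 ± 0.1 and -0.64 ± 0.14 and the receptor gene Rarb by -0.99. The higher gene was Rbp4, the plasma retinol carrier (1.71 ± 0.22).

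Of 10 hedgehog genes 4 were called higher (Gli1, Gli3, Ptch1 and Shh) and none lower, beside 11.4% and 15.2% of all tested genes. All of these 4 but Gli1 lost the call without 2 or more of the 6 arrays. In the BMP list 2 of 15 were higher, Grem1 (1.03 ± 0.18) and Smad6, and 2 lower, Bmp7 and Id1 (-0.35 ± 0.06), near the shares of all tested genes (11.4% and 15.2%), and Smad6 lost its call without any of the 6 arrays. Erythroid, Hox, eye and lens, pigment and pituitary genes gave 0 calls by limma in either direction, and 1 gene each at an unadjusted p under 0.05 except pituitary, with 0. Without maxilla 3 the Hox and eye lists had 1 call each, and without maxilla 2 the erythroid list had 1. Their smallest adjusted p-values were 0.0808 for Six6, 0.0823 for Hoxd1, 0.0931 for Alas2, 0.101 for Pmel and 0.228 for Cga. FGF genes gave 2 calls higher (Spry1 and Spry4) and 1 lower (Fgf9) among 14 measured, likewise near the shares of all genes, and Spry4 lost its call without 5 of the 6 arrays. Head muscle precursor genes, 5 measured, gave 1 call higher (Tbx1) and 2 lower (Lhx2 and Isl1), beside 11.4% and 15.2% of all tested genes. The same calls are counted in the tongue and pharynx, olfactory and sensory ganglion lists. Of 13 endothelial genes 1, Vwf, was called lower (-0.69 ± 0.23), and 2 of 13 cell cycle genes were called higher, Rrm2 by 0.26 ± 0.06 and Mcm5 by 0.16 ± 0.05. These counts too were near or under the shares of all tested genes (15.2% lower and 11.4% higher). Vwf and Mcm5 each lost the call without 3 or more arrays.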
